A study of Mus musculus with 18 samples.

Results

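The respiratory chain genes described here are the protein-coding genes whose symbols name a subunit of complexes I to IV or of the ATP synthase, taken by symbol and not by any measured value. The symbol rule found 98 genes among 38250 features counted, 85 in the nucleus and 13 on the mitochondrial genome. A filter on low counts left 95 of them for testing, and Cox6a2, Cox7b2 and Cox8b, with 1 to 3 reads each over all libraries, were not tested. Nuclear members comprised 35 genes of complex I, 4 of complex II, 8 of complex III, 17 of complex IV and 15 of the ATP synthase. The rule also matched 6 genes that are not subunits or are uncertain as such: Cox4nb, a gene of an endoplasmic reticulum membrane complex, Atp5s, Atp5sl, Cox7a2l, Ndufa4l2 and Atp5l-ps1.

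The cells came from the lateral cortex of C57BL/6 mouse embryos at embryonic day 14.5, all with the genotype label Btg2GFP/Tubb3GFP, and were sorted by flow cytometry. PP cells (RFP-negative) are labelled as Btg2-negative proliferating progenitors, DP cells (RFP-positive) as Btg2-positive differentiating progenitors, and Neuron cells (GFP-positive) as Tubb3-positive neurons. Titles name a red reporter where the genotype label names GFP for Btg2, and no label resolves this. Each group had 3 libraries of poly-A RNA, each from a pool of more than 3 embryos of different litters, and each library was sequenced in a single-read and a paired-end run that were added. Library numbers form 3 sets of consecutive numbers (L222 to L224, L355 to L357 and L393 to L395), each with 1 library of every group, and libraries of a set deviated together. Tests without these sets as a block are given first, and the blocked value follows where it changes a call. Library totals lay between 34337209 and 55935128 counts, of which respiratory chain genes took 1.63% to 1.80%. A group is defined by its reporter gate, so it can hold other cells, and fewer cells of a type cannot be told apart from less RNA per cell.

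The labels were checked against marker genes. Summed radial glia markers (6 genes such as Pax6 and Sox2) lay at 3530 to 3851 CPM (counts scaled to library size) in PP, 1466 to 2147 in DP and 144 to 183 in Neuron. Summed neuron markers (5 genes such as Dcx and Map2) lay at 113 to 274 CPM in PP, 1643 to 2321 in DP and 6884 to 7411 in Neuron. The neuron list was drawn up with Tubb3, whose reporter sets the Neuron gate, so this sum may be set in part by the sort. Btg2 itself, which the gate on PP selects against, was still at 403 to 523 CPM in PP, against 658 to 1156 CPM in DP. PP libraries also held red blood cell transcripts, with 12 marker genes summing to 8368 to 15340 CPM, against 19.1 to 126 CPM in DP and 14.2 to 16.6 CPM in Neuron. Microglia markers summed to 10.6 to 14.1 CPM in PP, 6.22 to 7.65 CPM in DP and 1.71 to 3.13 CPM in Neuron.

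The respiratory chain passes electrons from NADH through complex I, or from succinate through complex II, to complex III and then to oxygen at complex IV, and the proton gradient this builds drives the ATP synthase. Complex II is made wholly of nuclear-encoded proteins, whereas the other complexes combine nuclear subunits with proteins made inside the mitochondrion. Nearly all mitochondrial messages are cut from a long heavy-strand transcript, and mt-Nd6 is the protein-coding message of the light strand. Progenitors of the developing cortex are known for a high use of glycolysis, and neurons for their dependence on oxidative phosphorylation.

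Before levels of the mitochondrial genes can be read, it matters how many of their letters are also found elsewhere in the mouse genome. A stretch of nuclear chromosome 1 carries a copy of part of the mitochondrial DNA, annotated as 7 adjacent unprocessed pseudogenes at chr1:24611535-24616197 (GRCm38, minus strand, 4663 bases from the first to the last). The sequences below, the first 150 bases of a mitochondrial gene and of its chromosome 1 copy, show how little there is to tell a short read of the gene from a read of its copy. They are from GENCODE M21 transcripts on GRCm38, and capitals mark the base that differs.

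mt-Nd3 (complex I subunit, MT:9459-9608, plus strand): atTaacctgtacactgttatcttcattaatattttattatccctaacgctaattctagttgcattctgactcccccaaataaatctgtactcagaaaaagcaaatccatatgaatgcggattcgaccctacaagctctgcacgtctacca
Gm28438 (chr1:24612970-24613119, minus strand): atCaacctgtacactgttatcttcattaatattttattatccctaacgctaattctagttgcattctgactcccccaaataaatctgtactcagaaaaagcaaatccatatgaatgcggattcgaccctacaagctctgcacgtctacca
mt-Co2 (complex IV subunit, MT:7013-7162, plus strand): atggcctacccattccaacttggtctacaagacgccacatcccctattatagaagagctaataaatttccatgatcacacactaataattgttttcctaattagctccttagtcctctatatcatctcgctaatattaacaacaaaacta
Gm28661 (chr1:24615416-24615565, minus strand): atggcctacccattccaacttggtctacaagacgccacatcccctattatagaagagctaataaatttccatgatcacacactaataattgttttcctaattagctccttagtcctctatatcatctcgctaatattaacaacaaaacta

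Counted from 1 at the gene's 5′ end, the sole difference between mt-Nd3 and Gm28438 over the 345 bases aligned was T3C. The copies of mt-Co2 (681 bases), mt-Atp6 (678 bases), mt-Co3 (783 bases) and mt-Nd4l (294 bases) were identical to the mitochondrial gene over their whole aligned length. The copy of mt-Nd4 was identical over 876 of its 1378 bases. Of all 50-base windows of each gene, 100% of mt-Co2, 99.5% of mt-Atp6, 99.9% of mt-Co3, 97.99% of mt-Nd3 and 98.8% of mt-Nd4l were found in a transcript of another locus, against 0% of mt-Nd1, mt-Cytb and mt-Nd6. mt-Co1 (51.1%) and mt-Nd4 (62.2%) lay between. mt-Atp8 shared no window with an annotated transcript, but it lies between mt-Co2 and mt-Atp6 in a stretch of 233 bases that has the same length between Gm28661 and Gm10925 on chromosome 1.

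These genes were almost unread in every group. On the RPKM scale, which divides by gene length and library size (mean of 9 libraries), mt-Co2 was at 1.96, mt-Atp6 at 2.87, mt-Co3 at 2.39, mt-Nd3 at 7.44, mt-Nd4l at 3.72 and mt-Atp8 at 4.17. The messages on both sides of them on the mitochondrial genome stood far higher, with mt-Co1 at 2065 RPKM and mt-Nd4 at 961 RPKM. mt-Cytb, with no shared window, had the highest level of all respiratory chain genes, 2628 RPKM. mt-Co2 had 25, 63 and 47 reads in the 3 PP libraries, 42, 58 and 46 in DP, and 86, 99 and 70 in Neuron. Of the 7 copies, Gm10222 and Gm10925 were counted, with 256 and 951 reads over all libraries, and the others were not analysed here. No source used here gives how reads with several possible places were counted, and its part in these low levels was not tested. mt-Co2 passed the threshold for Neuron against DP and PP (edgeR adjusted p = 0.00625 and 0.00278), and the other 5 passed in no comparison. With the block, mt-Atp6, mt-Atp8 and mt-Nd3 passed for Neuron against PP (adjusted p = 0.0255, 0.0275 and 0.0194), mt-Nd3 in the lower direction. mt-Nd3 was then also lower in DP than in PP (edgeR adjusted p = 0.0128), and mt-Atp6 higher in Neuron than in DP (0.0484). Levels of these 6 genes are therefore listed but not read as message abundance.

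**Figure D1:**
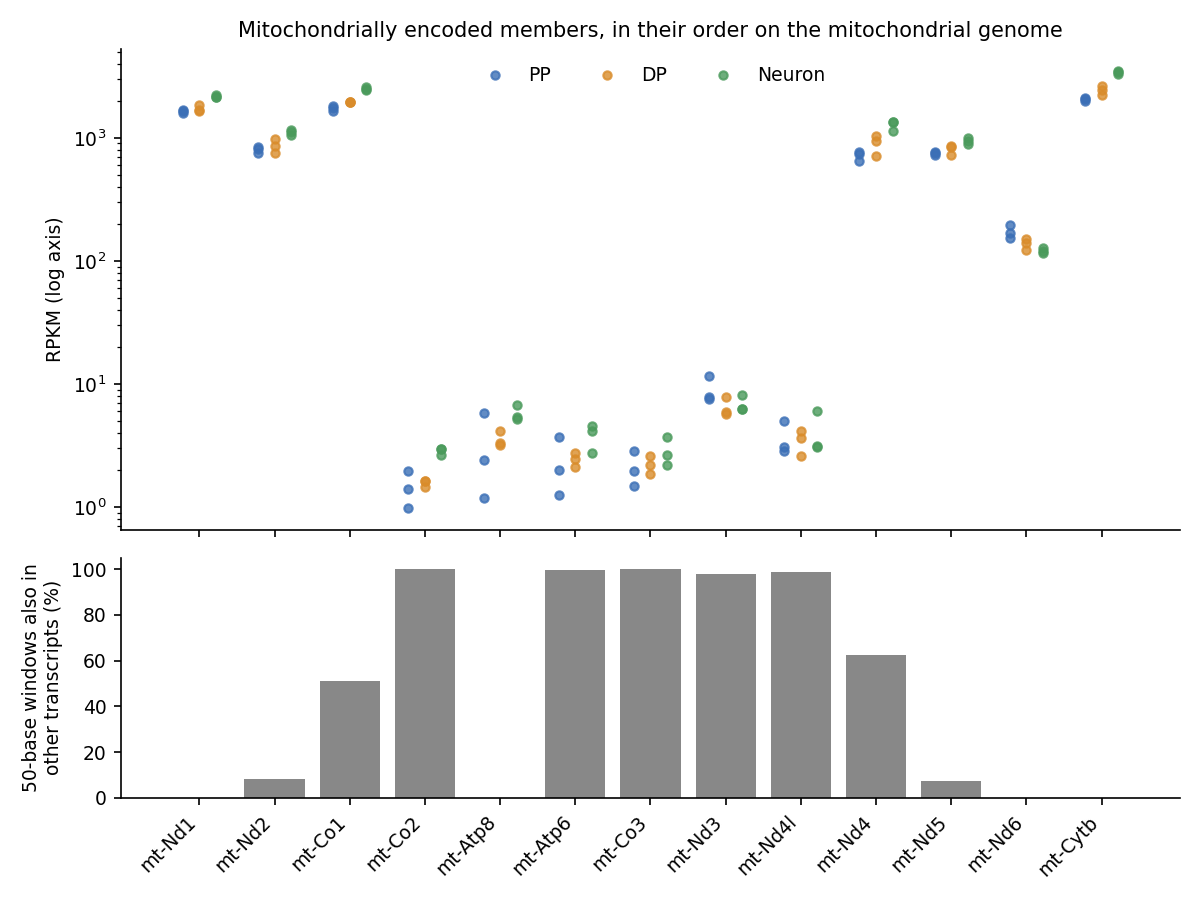
Level of the 13 mitochondrially encoded genes in each library (top, RPKM, log axis, points are libraries, colours are groups) in genome order, above the percentage of their 50-base windows that occur in transcripts of other loci (bottom). The 6 adjacent genes from mt-Co2 to mt-Nd4l lie near or below 10 RPKM in all 3 groups, and 5 of these have 97.99% or more of their windows shared.

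Levels of the nuclear members were also set beside their shared windows. Nuclear members with under 10% of windows shared had a median level of 37.1 RPKM (67 genes), and those with 10% to 90% shared had 14.7 RPKM (17 genes). Atp5l (68.5%), Atp5h (47.9%) and Uqcrb (43.2%) shared the most windows, in the main with processed pseudogenes. Folds of such genes compare reads that could be placed. The nuclear members with the highest level were Cox4i1 (220 RPKM, complex IV), Atp5a1 (201 RPKM) and Atp5b (192 RPKM), the catalytic pair of the ATP synthase. Atp5b had 754 to 916 CPM in PP, 705 to 844 CPM in DP and 760 to 879 CPM in Neuron, and these ranges overlapped in every pair of groups.

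All 6 heavy-strand messages that could be read (mt-Nd1, mt-Nd2, mt-Co1, mt-Nd4, mt-Nd5 and mt-Cytb) were higher in Neuron than in PP and than in DP, by 0.33 to 0.82 and by 0.23 to 0.50 on the log2 scale. Between DP and PP the fitted changes were 0.07 to 0.32, with mt-Cytb alone past the threshold, and with the block also mt-Co1 (0.17 ± 0.05, adjusted p = 0.02) and mt-Nd4 (0.31 ± 0.07, 0.0048). Summed over all 13 mitochondrial genes, the level was 9820, 10070 and 9757 CPM in the PP libraries, 10480, 11020 and 11900 in DP, and 14410, 14400 and 14690 in Neuron. The 3 groups did not overlap, and Neuron stood 1.47-fold above PP and 1.302-fold above DP. The summed level of the 85 nuclear members was 5396 ± 532 CPM in PP, 5113 ± 429 in DP and 5441 ± 278 in Neuron (SD, n = 3), and the groups overlapped. With plain library totals in place of the composition scaling described below, the mitochondrial sums of DP (10800 to 12390 CPM) overlapped those of PP (10650 to 10930), and the nuclear sums of Neuron (4649 to 4904 CPM) lay below those of PP (5357 to 6271).

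mt-Cytb encodes cytochrome b, the mitochondrial subunit of complex III. It was at 2259, 2425 and 2361 CPM in PP, then 2529, 2813 and 3027 in DP, then 3752, 3913 and 3979 in Neuron. Every DP library was above every PP library and below every Neuron library. The quasi-likelihood test of edgeR, adjusted after Benjamini and Hochberg over all features, gave a log2 fold change of 0.72 ± 0.08 (SE, adjusted p = 5.39e-06) for Neuron against PP and 0.48 ± 0.08 (adjusted p = 0.000226) for Neuron against DP. The difference of DP from PP was 0.25 ± 0.08 (adjusted p = 0.0267). It missed the threshold without DP library L356 (adjusted p = 0.0691), DP library L394 (0.0966) or PP library L222 (0.0804), with only the 2 groups fitted (0.0504) and with plain totals (0.124).

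mt-Co1 encodes the catalytic subunit of complex IV. Its levels were 2799, 2709 and 2549 CPM in PP, then 2993, 3034 and 3043 in DP, then 3980, 3772 and 3832 in Neuron, again with no overlap between groups. Neuron exceeded PP by 0.52 ± 0.07 on the log2 scale (edgeR adjusted p = 2.15e-05), while DP against PP gave 0.17 ± 0.07 (adjusted p = 0.063). mt-Nd4, a proton-pumping subunit of complex I, had the largest fitted change of the 6 between Neuron and PP, 0.82 ± 0.13 (edgeR adjusted p = 0.000116). Its levels were 887, 1064 and 1011 CPM in PP, then 984, 1292 and 1430 in DP, then 1564, 1836 and 1844 in Neuron, so DP overlapped PP. Of their 50-base windows, mt-Nd4 shared 62.2% and mt-Co1 51.1%, so folds of both compare reads that could be placed. mt-Nd1, also of complex I, was at 1597, 1578 and 1529 CPM in PP, then 1579, 1615 and 1750 in DP, then 2132, 2034 and 2036 in Neuron. PP and DP overlapped and Neuron stood apart (0.40 against PP, edgeR adjusted p = 0.000214). mt-Nd2, of the same complex, was at 782 to 868 CPM in PP, 787 to 1011 in DP and 1084 to 1211 in Neuron (0.47 against PP, edgeR adjusted p = 0.000698). mt-Nd5, another complex I subunit, had the smallest change, from 1330 to 1398 CPM in PP to 1620 to 1821 CPM in Neuron (0.33 ± 0.08, edgeR adjusted p = 0.00295). Against DP, its call (edgeR adjusted p = 0.0252) was lost without DP library L356 (0.112), Neuron library L224 (0.0842) or Neuron library L395 (0.0521), and without the lowest-numbered set (0.0711).

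The size of these changes depends on how libraries are scaled. The composition scaling (TMM) used here gave factors of 1.09 to 1.12 for PP, 1.02 to 1.04 for DP and 0.867 to 0.907 for Neuron. With plain library totals, an alternative added after the data had been seen, the median log2 fold change of all features tested moved from -0.04 to -0.35 for Neuron against PP, from -0.04 to -0.26 for Neuron against DP and from -0.02 to -0.11 for DP against PP. Relative to that median, the 6 heavy-strand messages stood at 0.54 for Neuron against PP, and the nuclear members at 0.08. A change of scaling moves all features by nearly the same amount. These relative values are therefore alike under both scalings by construction and are no test of the scaling. With plain totals all 6 still had positive changes, and mt-Co1, mt-Nd4 and mt-Cytb passed the threshold for Neuron against PP. mt-Nd1, mt-Nd2 and mt-Nd5 did not (edgeR adjusted p = 0.209, 0.154 and 0.803). Against DP, mt-Cytb alone of the 6 passed with plain totals.

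A ratio within a library does not depend on scaling. Heavy-strand reads per read of the nuclear members were 1.68, 1.78 and 2.01 in PP, then 1.93, 2.05 and 2.56 in DP, then 2.53, 2.59 and 2.85 in Neuron. The Neuron and PP libraries were apart, and DP overlapped both. Within each set of consecutive library numbers, the ratio rose from PP to DP to Neuron. Within the heavy strand, mt-Cytb reads per mt-Nd1 read were 1.498 ± 0.07 in PP, 1.69 ± 0.08 in DP and 1.88 ± 0.10 in Neuron (SD, n = 3), so messages of the same long transcript did not keep a fixed proportion. The Neuron libraries (1.76 to 1.95) lay above the PP libraries (1.42 to 1.54), and DP (1.60 to 1.74) lay between without touching either. Red blood cell transcripts, given above, were highest in PP, and their part in these ratios was not tested. Leaving the globin genes out of the totals ended none of the Neuron against PP or Neuron against DP calls of the 6 messages. It left in any respiratory chain reads that came from red blood cells, so it is no test of their part.

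mt-Nd6 went the other way. This complex I subunit, on the opposite strand at MT:13552-14070 (mm9 coordinates of the files), was at 88.2, 79.0 and 101 CPM in PP, then 72.2, 63.5 and 78.4 in DP, then 59.7, 62.2 and 65.5 in Neuron. All Neuron libraries were below all PP libraries, and the Neuron and DP ranges overlapped. The log2 fold change was -0.52 ± 0.10 (edgeR adjusted p = 0.000563) from PP to Neuron, -0.32 ± 0.10 (0.0218) from PP to DP and -0.19 ± 0.10 (0.112) from DP to Neuron, the last passing with the block (adjusted p = 0.0241). The DP against PP call was lost without DP library L356 (adjusted p = 0.094) or PP library L393 (0.0994), and without the lowest-numbered set (0.0794). Per 100 heavy-strand reads, mt-Nd6 had 0.907, 0.791 and 1.05 reads in PP, then 0.695, 0.580 and 0.664 in DP, then 0.417, 0.434 and 0.448 in Neuron, and here the 3 groups did not overlap. No source used here gives whether the counts were made by strand, and heavy-strand reads over mt-Nd6 cannot be told apart from its own.

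**Figure D2:**
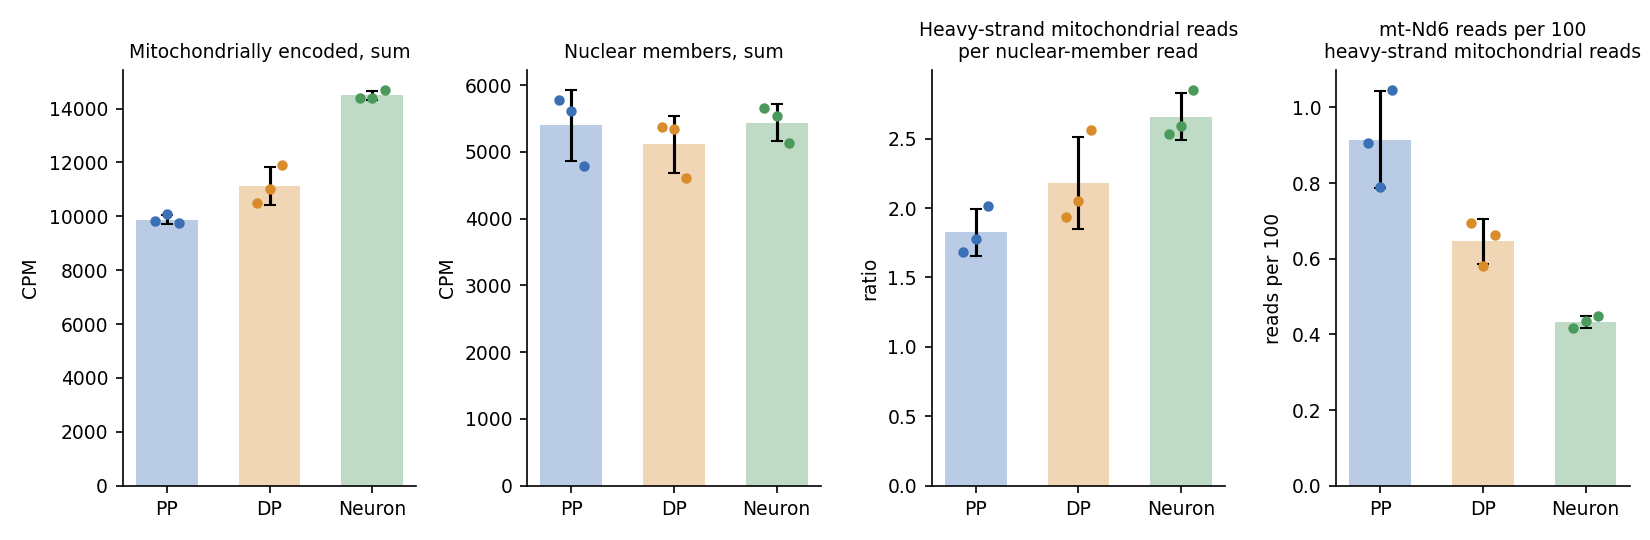
Summed level of the mitochondrial and nuclear members (CPM), heavy-strand mitochondrial reads per nuclear-member read, and mt-Nd6 reads per 100 heavy-strand reads. Bars are group means, error bars the SD over 3 libraries, points the libraries; the mitochondrial sum reached 14500 ± 166.2 CPM in Neuron against 9883 ± 167.9 in PP, while the nuclear sums overlapped.

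From PP to DP, 7 of the 95 tested members (7.37%) passed the threshold, 1 higher and 6 lower, where 41.4% of all 18627 features tested did. Background shares were 21.3% higher and 20.2% lower. Between Neuron and DP, 31 members (32.6%) passed, 22 higher and 9 lower, where 67.3% of all features did, 33.1% higher and 34.2% lower. Between Neuron and PP, 41 members (43.2%) passed, 20 higher and 21 lower, where 75.3% of all features did, 36.7% higher and 38.6% lower. With the block, none of these calls was lost, and the counts became 5 higher and 16 lower from PP to DP, 37 and 14 in the Neuron and DP comparison, and 31 and 24 between Neuron and PP. All features called were then 51.2%, 73.1% and 80.2%. Of the 18627 features, these were 4794 higher and 4736 lower, 6708 and 6912, and 7301 and 7637, in the same order. Groups whose libraries do not overlap, named gene by gene here, were also common: 49.7% of all features for DP and PP, 72.4% for Neuron and DP, and 78.6% for Neuron and PP. Single libraries moved these counts. Without DP library L356, 3 members were lower in DP than in PP and 5 lower in Neuron than in DP. Without DP library L394 or Neuron library L357, 13 or 14 were higher in Neuron than in DP. Without Neuron library L395, 4 were lower in Neuron than in DP and 13 lower than in PP. The median absolute log2 fold change of the nuclear members for Neuron against PP was 0.19, beside 0.79 over all features. Of the members, 2, 3 and 9 passed with a fold of at least 1.5 in the same 3 comparisons, beside 23.4%, 47.6% and 57.6% of all features. Of the members, 5.26% were lower in Neuron than in PP by that rule, where 30.1% of all features were. They were Cox4i2, Cox6b2, Ndufa4l2, Atp5g2 and Atp5l-ps1, all at low levels, with a highest group mean of 2.74 CPM (Cox6b2 in PP). Ndufa4l2 and Atp5l-ps1 are among the matches that are not subunits or are uncertain. The member higher in Neuron than in DP by that rule was mt-Co2, whose level is not read as message abundance. Comparisons share libraries, so their counts are not independent.

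The direction of the nuclear calls changed with the scaling. Of nuclear members, 13 were higher and 20 lower in Neuron than in PP, and with plain totals none was higher and 49 were lower. For Neuron against DP the split was 15 higher and 9 lower, and with plain totals 3 and 26. With the block and TMM, 22 were higher and 22 lower in Neuron than in PP, and 29 and 13 in Neuron than in DP. Among all features called, 48.7% were higher in Neuron than in PP and 35.0% with plain totals. The shares were 49.1% and 35.7% in Neuron against DP, and 51.3% and 39.6% in DP against PP. How many of all features were called with plain totals is not given here. Their median change moved lower too, as given above, so counts under plain totals are not read as a result about the members. In the authors' deposited table, whose values come from their own fit, the DP and PP comparison had 3 members higher and 6 lower in DP, and the Neuron and DP comparison 24 higher and 5 lower in Neuron. Of the calls made here, 7 of 7 and 27 of 31 were called there in the same direction.

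**Figure D3:**
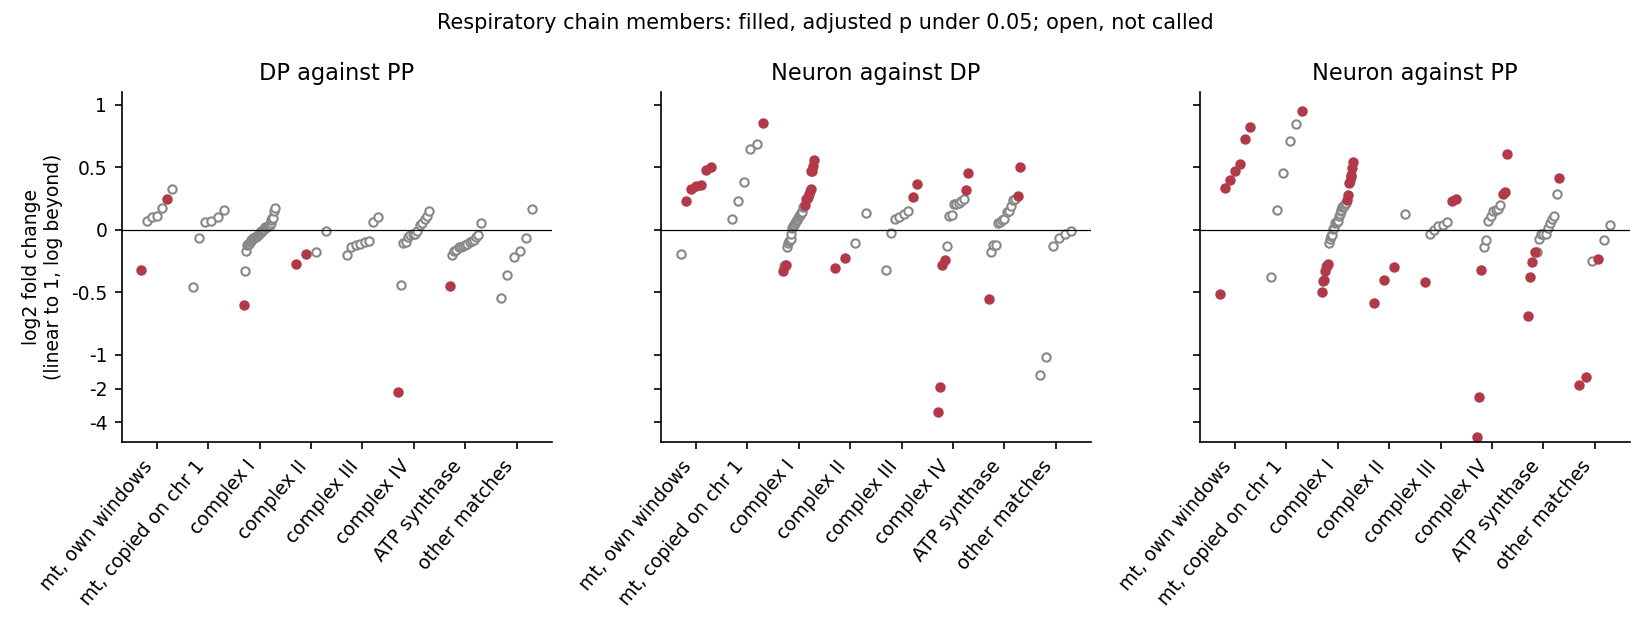
Fitted log2 fold change of each tested member in the 3 comparisons, by complex (axis linear up to 1 and logarithmic beyond). Filled points passed an adjusted p of 0.05; most nuclear members lie within 0.5 of 0, readable mitochondrial genes lie above 0 in Neuron except mt-Nd6, and Cox4i2 is the lowest point in each panel.

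Of the 4 complex II genes, 3 fell and none rose between PP and Neuron, where 38.6% of all features fell and 36.7% rose. Complex II oxidises succinate both in the tricarboxylic acid cycle and in the chain. Of its genes, Sdha, Sdhc and Sdhd were lower in Neuron than in PP, and Sdhb had a log2 fold change of 0.12 ± 0.12 (edgeR adjusted p = 0.352, with the block 0.0535). The median change of the 4 was -0.35, beside -0.04 over all features. The share of complex II among nuclear members does not depend on scaling: its reads per read of the other nuclear members were 0.0819, 0.0855 and 0.0881 in PP, then 0.0806, 0.0778 and 0.0797 in DP, then 0.0655, 0.0659 and 0.0680 in Neuron. Every Neuron library lay below every progenitor library.

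Sdhd, a membrane anchor subunit (mm9 chr9:50404443-50411954), was at 58.8, 62.0 and 56.5 CPM in PP, then 51.4, 49.2 and 45.6 in DP, then 39.5, 38.8 and 40.1 in Neuron. The 3 groups formed 3 separate steps. Its log2 fold changes were -0.28 ± 0.07 (edgeR adjusted p = 0.00702) for DP against PP, -0.31 ± 0.07 (0.00205) for Neuron against DP and -0.58 ± 0.07 (1.01e-05) for Neuron against PP, and all 3 calls held under every alternative run. Sdha, the flavoprotein that binds succinate (mm9 chr13:74459702-74487728), was at 233, 239 and 210 CPM in PP, then 217, 206 and 181 in DP, then 177, 177 and 162 in Neuron. Neuron was below PP without overlap. DP was called lower than PP with the block (adjusted p = 0.0127, without it 0.109) and with plain totals. The change of Neuron from PP passed with and without the block (-0.40 ± 0.08, edgeR adjusted p = 0.000807 without it). Against DP, Sdha's call (edgeR adjusted p = 0.0285) was lost without DP library L223 (0.118), DP library L356 (0.0726), Neuron library L357 (0.052), Neuron library L395 (0.111) or the lowest-numbered set (0.137), with DESeq2 (0.0519) and with RLE scaling (0.0527).

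Sdhc, the other membrane anchor (mm9 chr1:173057296-173080734), was at 77.7, 77.9 and 69.2 CPM in PP, then 66.1, 67.6 and 62.9 in DP, then 59.7, 60.7 and 62.3 in Neuron. Its change for Neuron against PP was -0.30 ± 0.07 (edgeR adjusted p = 0.00165). For DP against PP it just passed (-0.19 ± 0.07, edgeR adjusted p = 0.038), and missed the threshold when any library but PP library L393 was left out (adjusted p between 0.0542 and 0.135), without the lowest-numbered set (0.171), without the filter on low counts (0.112), with only the 2 groups fitted (0.0764) and in either run alone (0.0516 and 0.0617). Sdhb, the iron-sulphur subunit, was at 68.4, 63.5 and 52.0 CPM in PP, then 66.4, 63.6 and 52.0 in DP, then 72.3, 66.0 and 61.9 in Neuron, with overlap in every pair of groups. With the block Neuron exceeded DP (0.14 ± 0.05, adjusted p = 0.0401).

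Complex I genes split into risers and fallers within a narrow range. Of 35 nuclear genes, 7 rose and 6 fell for Neuron against PP, 9 rose and 2 fell for Neuron against DP, and 1 fell for DP against PP. With the block these were 13 and 7, 12 and 4, and 2 higher and 3 lower, beside the blocked counts of all features given above. Over all features, without the block, 36.7% rose and 38.6% fell for Neuron against PP. The shares were 33.1% and 34.2% for Neuron against DP, and 21.3% and 20.2% for DP against PP. Ndufa8, an accessory subunit, was at 34.5, 30.6 and 25.2 CPM in PP, then 28.8, 29.4 and 24.9 in DP, then 43.1, 41.0 and 38.1 in Neuron, above both progenitor groups without overlap (log2 fold change 0.56 ± 0.11 against DP, edgeR adjusted p = 0.00104). Ndufb9, another accessory subunit, went from 42.0 to 56.0 CPM in PP and 45.9 to 56.8 CPM in DP to 68.5 to 78.1 CPM in Neuron (0.54 ± 0.11 against PP, edgeR adjusted p = 0.00111). Ndufb10 rose by 0.49 ± 0.15 against PP (edgeR adjusted p = 0.0113). Under plain totals these 3 kept their sign against PP but missed the threshold (adjusted p = 0.274, 0.0626 and 0.247).

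Among the fallers, Ndufs7, a core subunit that carries an iron-sulphur cluster, was at 34.4, 40.3 and 32.9 CPM in PP, then 34.9, 36.4 and 30.3 in DP, then 25.2, 30.4 and 25.4 in Neuron. Its log2 fold change was -0.41 ± 0.11 for Neuron against PP (edgeR adjusted p = 0.00486), with no overlap. Ndufa12, an accessory subunit, was at 28.9, 30.9 and 27.1 CPM in PP, then 28.6, 30.7 and 27.4 in DP, then 23.7, 24.0 and 23.5 in Neuron. It fell by 0.29 on the log2 scale against both progenitor groups (edgeR adjusted p = 0.00671 against DP and 0.00541 against PP). Ndufb4, an accessory subunit with 37.0% of its windows shared, was the complex I gene lower in DP than in PP (-0.61 ± 0.17, edgeR adjusted p = 0.0151), a call lost without DP library L356 (0.0612) or PP library L222 (0.0645), and with paired-end runs alone (0.0967).

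In complex III, Uqcrc2, a core protein, and Uqcrh, the hinge protein, were higher and Uqcr10, a small subunit, was lower in Neuron than in PP. With plain totals Uqcrc2 and Uqcrh changed sign, to -0.07 and -0.08 on the log2 scale. The other 5 nuclear genes did not pass with TMM, where 75.3% of all features did. Uqcrc2 was at 96.2, 88.0 and 76.7 CPM in PP and 107, 103 and 98.2 CPM in Neuron (0.24 ± 0.10, edgeR adjusted p = 0.0442), a call lost without Neuron library L224 (0.109), Neuron library L357 (0.0874), PP library L355 (0.0793) or PP library L393 (0.137), and in either run alone (0.0602 and 0.0572). Uqcr10 was at 41.9, 48.9 and 36.7 CPM in PP and 31.3, 36.7 and 27.2 CPM in Neuron (-0.42 ± 0.15, edgeR adjusted p = 0.0243), a call lost without Neuron library L224 (0.0618), Neuron library L395 (0.106), PP library L355 (0.107) or the lowest-numbered set (0.118). With the block it was also lower than in DP (adjusted p = 0.000315). Uqcrh, at 49.1 to 60.1 CPM in PP and 62.4 to 68.1 CPM in Neuron (0.23 ± 0.08, edgeR adjusted p = 0.0233), missed the threshold without Neuron library L224 (0.0733), Neuron library L357 (0.0517) or PP library L393 (0.0675).

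Of the ATP synthase, 1 of 15 nuclear genes was higher and 4 were lower in Neuron than in PP. Over all features, 36.7% were higher and 38.6% lower. Atp5o, the stalk subunit that links the catalytic head to the membrane part, was at 108, 102 and 77.6 CPM in PP, then 96.9, 95.5 and 77.0 in DP, then 137, 130 and 115 in Neuron. It rose by 0.41 ± 0.13 against PP (edgeR adjusted p = 0.0114) and by 0.50 ± 0.13 against DP (0.00407), and under plain totals the change against PP was 0.10 (adjusted p = 0.432). Subunit c of the rotor ring is encoded by 3 genes with the same mature protein. Atp5g3 carried most of its reads, at 111 to 139 CPM in PP, 104 to 119 in DP and 121 to 129 in Neuron, with no comparison past the threshold. With the block it was lowest in DP, against PP (adjusted p = 0.0315) and against Neuron (0.044). Atp5g1 was at 15.0, 16.4 and 14.9 CPM in PP, then 10.4, 12.2 and 11.4 in DP, then 12.8, 13.7 and 14.6 in Neuron, and so was lowest in DP. Its fall from PP to DP (-0.45 ± 0.10, edgeR adjusted p = 0.00291) held under every alternative run. The rise from DP to Neuron (0.27 ± 0.10, edgeR adjusted p = 0.0251) was lost without DP library L223 (0.0787), DP library L394 (0.0529), Neuron library L357 (0.0625), Neuron library L395 (0.095) or the lowest-numbered set (0.0583). It was also lost with single-read runs (0.201), without the filter (0.0581), with only the 2 groups fitted (0.0505) and with plain totals (0.649). With the block, Atp5g1 was called lower in Neuron than in PP too (adjusted p = 0.0461). Atp5g2, with 31 to 71 reads per library, was lower in Neuron than in PP (-0.69 ± 0.21, edgeR adjusted p = 0.00951), a call lost with single-read runs alone (0.0602).

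Complex IV has tissue-specific isoforms of several subunits, some of them at very low levels here. Of its 14 tested nuclear genes, 3 rose and 3 fell between PP and Neuron (6 and 3 with the block). Among all features, 36.7% rose and 38.6% fell without the block, and the blocked counts are given above. Cox5a, a subunit with a single gene (mm9 chr9:57369039-57380231), was at 38.2, 44.0 and 34.9 CPM in PP, then 42.9, 50.8 and 35.9 in DP, then 52.0, 65.6 and 60.3 in Neuron. All Neuron libraries were above all progenitor libraries, and PP and DP overlapped. Its log2 fold change was 0.60 ± 0.13 (edgeR adjusted p = 0.00141) against PP and 0.46 ± 0.13 (0.00943) against DP, the former falling to 0.30 under plain totals (adjusted p = 0.0553) and the latter to 0.24 (0.122). Cox6b1 (0.28 ± 0.11, edgeR adjusted p = 0.0358) and Cox7a2 (0.30 ± 0.12, edgeR adjusted p = 0.0406) were also called higher against PP. Neither keeps its sign with plain totals, where they were at -0.02 and -0.01. The calls are also lost without PP library L393 (adjusted p = 0.108 and 0.132), PP library L355, or any of the 3 Neuron libraries (0.0537 to 0.101), and with single-read runs alone (0.0509 and 0.077). With the block, Cox7a2 was also called higher in Neuron than in DP (edgeR adjusted p = 0.0289).

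Cox4i1, the common form of subunit 4, was at 120 to 159 CPM in PP, 121 to 155.4 in DP and 151 to 173 in Neuron, with no comparison past the threshold. With the block Neuron exceeded DP (0.21 ± 0.05, adjusted p = 0.00516) and PP (0.20 ± 0.05, 0.00609). Cox4i2, its lung-type and oxygen-responsive form (mm9 chr2:152579909-152590773), had 35, 29 and 35 reads in PP, then 5, 9 and 9 in DP, then 0, 0 and 2 in Neuron. The 99 reads of PP against 23 of DP made a ratio of 4.40 per scaled read (exact 95% interval 2.77 to 7.25, counting error alone), and against the 2 reads of Neuron a ratio of 48.8 (13.1 to 408). edgeR's adjusted p was 0.00131 for DP against PP, 0.0031 for Neuron against DP and 7.24e-06 for Neuron against PP.

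Markers of blood vessel cells, like Cox4i2, were highest in PP and lowest in Neuron. So were the summed radial glia, red blood cell and microglia markers given above. Within PP, Cox4i2 was at 0.940, 0.619 and 0.719 CPM in libraries L222, L355 and L393, an order that the vessel markers did not follow. The 14 endothelial and pericyte markers summed to 41.9, 61.5 and 89.5 CPM in PP, then 24.0, 19.7 and 20.6 in DP, then 6.30, 5.79 and 9.32 in Neuron. Of these, 12 of 14 were lower in DP than in PP and 14 of 14 lower in Neuron than in PP. Over all features, the lower shares in these comparisons were 20.2% and 38.6%. The part of these markers in the Cox4i2 result was not tested. Most were low but counted in all groups, and Kcnj8, a pericyte potassium channel gene, was at 0 in 2 DP libraries, as was Cldn5, a tight junction gene of endothelial cells, in 1 Neuron library. Ndufa4l2, a relative of the complex IV subunit Ndufa4, was called lower in Neuron than in PP (-1.59 ± 0.52, edgeR adjusted p = 0.015), at 5 to 37 reads per library. Unlike those of Cox4i2, its groups overlapped, with PP library L222 at 0.188 CPM and Neuron library L224 at 0.258 CPM. The call was lost without PP library L393 (0.0815) or Neuron library L357 (0.0677).

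Cox6b2, known from the testis, was at 3.81, 2.14 and 2.28 CPM in PP, then 2.54, 1.36 and 2.15 in DP, then 0.421, 0.386 and 0.798 in Neuron. Both progenitor groups stood above Neuron without overlap, while DP and PP overlapped. Its log2 fold change was -1.92 ± 0.36 (edgeR adjusted p = 0.000531) against DP and -2.37 ± 0.36 (7.68e-05) against PP. The common forms Cox6a1 (87.6 to 134 CPM over all libraries) and Cox7b (34.4 to 53.9 CPM) passed in no comparison, nor did Ndufa4 (44.4 to 64.0 CPM) or Cox7a2l (53.5 to 81.8 CPM), a supercomplex factor. With the block, Cox6a1, Cox7b and Ndufa4 were called higher in Neuron, against DP (adjusted p = 0.00303, 0.0218 and 0.0122), and Cox6a1 also against PP (0.0356). Cox7c, at 14.5 to 17.7 CPM in DP and 12.8 to 13.9 CPM in Neuron, was called lower in Neuron (-0.25 ± 0.09, edgeR adjusted p = 0.0356), a call lost without any single DP or Neuron library but DP library L223 (0.061 to 0.145), with DESeq2 (0.0513), with RLE scaling (0.0559) and with paired-end runs alone (0.119). Cox7a1, the heart and muscle form of subunit 7a, stayed at 17 to 34 reads per library with no comparison past the threshold. Cox8a, the common form of subunit 8, was lower in Neuron than in PP (-0.32 ± 0.11, edgeR adjusted p = 0.0241), a call lost without PP library L222 (0.0939), PP library L355 (0.0558), Neuron library L357 (0.0797), Neuron library L395 (0.0899) or the lowest-numbered set (0.0666), and with single-read runs alone (0.134).

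**Figure D4:**
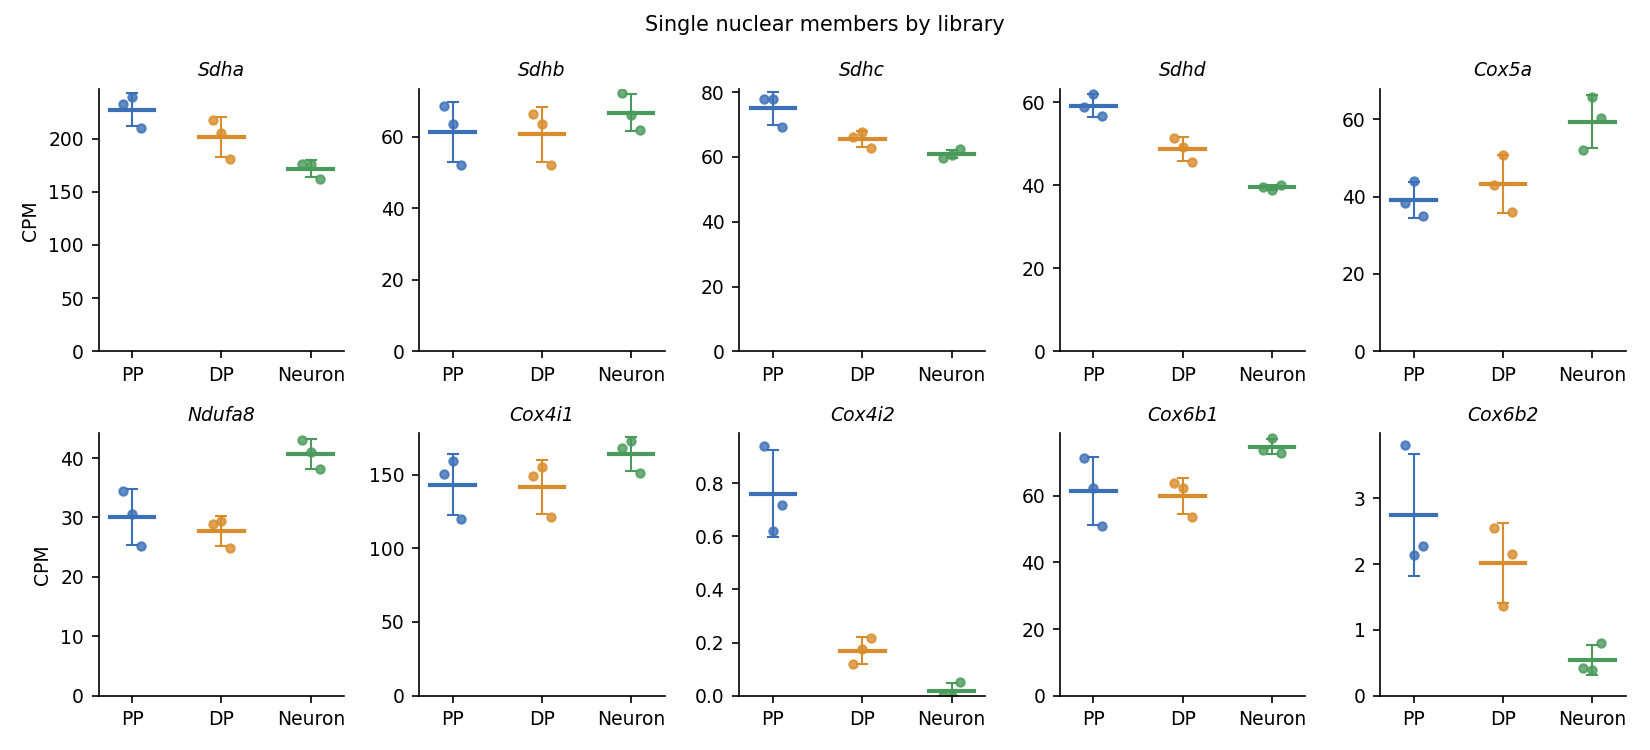
Level (CPM) of 10 nuclear members by library: points are libraries, horizontal lines group means and error bars the SD (n = 3), with each axis starting at 0. Sdhd steps down from PP to DP to Neuron, Cox5a and Ndufa8 are highest in Neuron, and Cox4i2 and Cox6b2 are lowest there while Cox4i1 overlaps between groups.

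Of 19 tested electron carriers and accessory genes, 2 were higher and 9 lower in Neuron than in PP. Over all features, 36.7% were higher and 38.6% lower in this comparison with TMM, and these shares stand beside each TMM list count that follows. They do not apply to the counts with plain totals. Among all features called, 35.0% were higher with plain totals and 48.7% with TMM. Gpd2, which feeds electrons from glycerol 3-phosphate into ubiquinone, was at 85.2, 77.7 and 72.3 CPM in PP, then 53.3, 48.7 and 44.2 in DP, then 23.8, 25.5 and 23.1 in Neuron, so it fell in 2 steps and was 3.25-fold lower in Neuron than in PP (edgeR adjusted p = 7.4e-09). Etfa, a subunit of the flavoprotein that hands on electrons from fatty acid oxidation, was at 30.8, 28.2 and 27.1 CPM in PP, then 25.5, 20.2 and 23.2 in DP, then 9.76, 9.14 and 10.2 in Neuron (2.96-fold lower than PP, edgeR adjusted p = 4.84e-08). Cycs, the mobile carrier cytochrome c, and Cyc1, the cytochrome c1 subunit of complex III that the symbol rule does not match, had log2 fold changes of 0.28 and 0.11 for Neuron against PP (edgeR adjusted p = 0.202 and 0.237).

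In the other direction, Atpif1, the inhibitor of ATP hydrolysis by the ATP synthase, was at 91.9, 81.6 and 73.5 CPM in PP, then 94.0, 107 and 96.8 in DP, then 198, 203 and 194 in Neuron. All Neuron libraries were far above both progenitor groups (2.41-fold above PP, edgeR adjusted p = 6.17e-08). Ndufab1, the acyl carrier protein of complex I, was at 29.9, 31.5 and 28.1 CPM in PP and at 17.4, 16.9 and 18.1 CPM in Neuron (1.71-fold lower, edgeR adjusted p = 2.57e-06). Gpd2, Etfa, Atpif1 and Ndufab1 kept direction and call under plain totals, where 1 carrier gene was higher and 14 were lower.

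Of 21 tested genes that copy, transcribe or process the mitochondrial genome, 5 were higher and 10 lower in Neuron than in PP (3 and 15 with plain totals). Tfam, which packages mitochondrial DNA and starts its transcription, was at 65.8, 68.7 and 62.8 CPM in PP, then 59.1, 61.4 and 59.0 in DP, then 40.7, 43.5 and 41.6 in Neuron (1.57-fold lower than PP, edgeR adjusted p = 1.9e-06). Tfb1m, a methyltransferase of the small ribosomal RNA, was 2.92-fold lower (edgeR adjusted p = 1.4e-07), and Tk2, a thymidine kinase that supplies nucleotides, 2.26-fold higher (2.18e-07). Of the 77 mitochondrial ribosomal protein genes, 10 were higher and 38 lower in Neuron than in PP (1 and 57 with plain totals). Their summed level was 1969 to 2158 CPM in PP and 1760 to 1810 CPM in Neuron. Mrpl13 (2.48-fold lower, edgeR adjusted p = 1.73e-07) and Mrps28 (2.05-fold lower, 4.82e-05) had the largest folds.

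Of 17 regulators of respiratory chain genes, 3 were higher and 10 lower in Neuron than in PP (2 and 13 with plain totals). The largest folds were of 2 genes at low levels. Ppargc1b, a coactivator, was at 2.25, 3.14 and 2.94 CPM in PP and 0.492, 0.549 and 0.154 CPM in Neuron (6.80-fold lower, edgeR adjusted p = 1.38e-05). Esrrg, a nuclear receptor, was at 2.202, 0.619 and 0.452 CPM in PP and 15.4, 6.54 and 4.58 CPM in Neuron (8.44-fold higher, edgeR adjusted p = 0.000525). Ppargc1a, the coactivator known for driving mitochondrial biogenesis, was at 28.1, 32.4 and 24.8 CPM in PP, then 11.2, 8.12 and 7.24 in DP, then 8.22, 8.13 and 7.44 in Neuron. The drop lay between PP and DP (log2 fold change -1.69, edgeR adjusted p = 6.76e-06), and DP and Neuron overlapped. Nrf1, a transcription factor of many nuclear subunit genes, was 1.55-fold lower in Neuron than in PP (edgeR adjusted p = 7.95e-06). Esrra, an orphan nuclear receptor of the same network, was at 26.5, 24.7 and 26.7 CPM in PP, then 34.7, 39.5 and 44.7 in DP, then 60.7, 59.8 and 62.6 in Neuron, rising at each step. It was 2.35-fold higher in Neuron than in PP (edgeR adjusted p = 1.36e-07).

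Of 29 assembly factors, 10 were higher and 9 lower in Neuron than in PP (5 and 16 with plain totals). Cox19, a copper-related factor of complex IV, was at 31.2, 27.2 and 27.4 CPM in PP and 74.7, 68.2 and 72.8 CPM in Neuron (2.51-fold higher, edgeR adjusted p = 2.54e-08). Nubpl, an iron-sulphur factor of complex I, was 2.27-fold lower (1.01e-05). Of 21 genes of the tricarboxylic acid cycle and pyruvate entry, 5 were higher and 4 lower (3 and 15 with plain totals). Suclg2, the GTP-forming subunit of succinyl-CoA ligase, was at 19.9, 20.3 and 17.7 CPM in PP, then 13.2, 11.3 and 10.4 in DP, then 2.76, 2.17 and 3.17 in Neuron (7.17-fold lower than PP, edgeR adjusted p = 6.07e-09). Brp44l, a subunit of the mitochondrial pyruvate carrier, was 2.09-fold higher (1.18e-05).

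**Figure D5:**
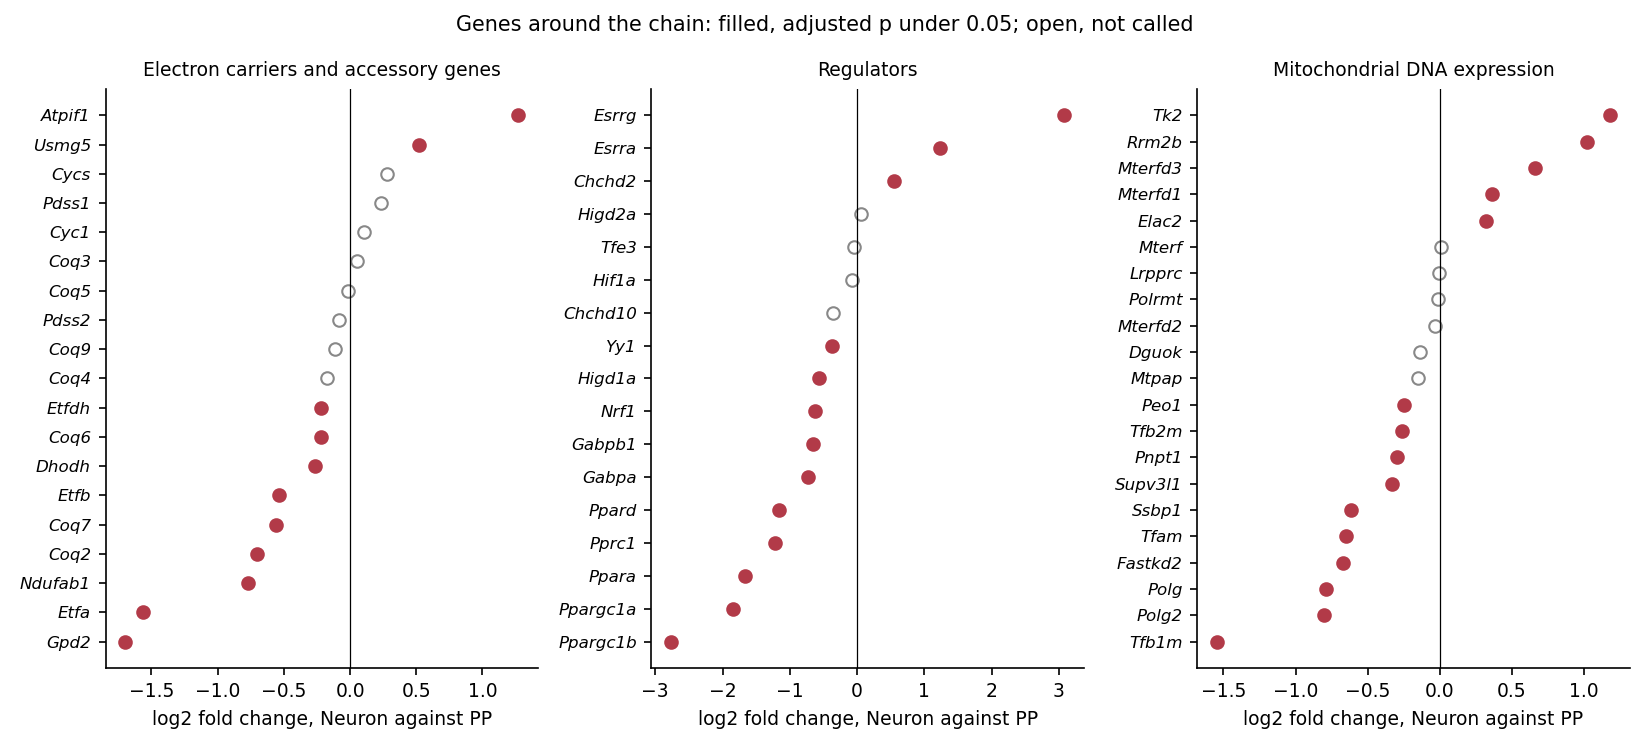
Fitted log2 fold change for Neuron against PP of the tested genes of 3 lists around the chain (filled, adjusted p under 0.05). Carriers and accessory genes show 2 higher and 9 lower, regulators 3 and 10, and mitochondrial DNA expression genes 5 and 10; Atpif1, Esrra and Tk2 stand on the higher side.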

How the data were processed

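Whole-number counts per gene and run were made by the authors and deposited for 18 samples (9 libraries, each with a single-read and a paired-end run). The submitters' processing notes name the build mm9, TopHat2 2.0.10, Bowtie2 2.2.1, BWA 0.5.9-r16, featureCounts 1.4.4 and DESeq2 1.4.5 among others, with no role or order. The authors' deposited comparison tables hold log2 fold changes, p-values and a normalised signal per library, and in these 159606 of 159606 signal values equalled the summed counts over a size factor within 0.06 plus 0.05% of the value. The deposited tables also give each gene's length, used here for RPKM.

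Both runs of a library were added. Count columns carry library numbers that no label gives, so libraries were tied to groups alone. The numbers form 3 sets of consecutive numbers with 1 library of each group. Deviations from group means over the features tested correlated at 0.13 to 0.345 in the 9 pairs within a set and at -0.319 to 0.0106 in the other 18, so the sets were added as a block in a second fit, chosen after the data were seen. The pairing comes from the column names and these correlations, not from a label. Libraries of a group differed beyond counting error (chi-square over its degrees of freedom 8.48 to 31.3). The series calls its replicates biological, each a pool of embryos, and the p-values rest on their spread. The comparisons used edgeR 4.0.16 under R 4.3.3 (TMM, filterByExpr, quasi-likelihood test, all 9 libraries, group as the only term, Benjamini-Hochberg threshold 0.05 over 18627 features). CPM are scaled by TMM totals, and errors of fold changes are derived from the test statistic. The fit was tested on simulated data.

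Alternatives were RLE scaling, DESeq2 1.42.0, no filter on low counts, the compared groups alone, mitochondrial or globin genes left out, single runs, libraries left out, the block and plain library totals. Windows of 50 bases of each member were looked up in GENCODE M21 transcripts (GRCm38), which is not the build of the files, so coordinates of each build are named as such. No genome or protein sequence was used.

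Members and lists were chosen with earlier results of these data known. Named genes are the mitochondrial, Sdh and isoform members, the marker genes, the 6 highest and 6 lowest calls per comparison without overlap and with at least 5 CPM, the member with most reads per complex and the 2 largest folds per list. Ndufb4, the complex III genes Uqcrc2, Uqcrh and Uqcr10, and Tfam, Ndufab1, Atpif1, Cycs, Cyc1, Ppargc1a, Nrf1 and Esrra were named after their values were seen.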

Additional observations from a re-analysis of the deposited data

How the results depend on the processing

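With the replicate block (sets of consecutive library numbers), members higher and lower became 5 and 16 in DP against PP, 37 and 14 in the Neuron and DP comparison and 31 and 24 for Neuron against PP, and 2 were higher by the fold for Neuron against DP. The block ended no member's call. Calls of single genes that libraries left out or other alternatives ended are given beside most of the genes named, and where no value shows why a result moved, the cause was not tested. Depth limits the low isoforms: Cox4i2 had 124 reads over all libraries and Ndufa4l2 139.

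For DP against PP, the count of members higher was 1 and became 3 with DESeq2, 2 without the filter on low counts, with paired-end runs alone and without the lowest-numbered library of each group, and 0 with the 2 groups alone, with mitochondrial genes left out (by construction) and with plain totals; leaving out single libraries gave 0 to 2. Members lower were 6, with 15 under plain totals and 3 to 7 without single libraries. With the fold of at least 1.5, higher members were 0 (0 to 1 without single libraries), and lower members 2 (1 to 2), with 1 in either run alone and without the lowest-numbered libraries.

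For Neuron against DP, 22 members were higher, with 5 under plain totals and 13 to 25 without single libraries, and 9 were lower, with 5 by DESeq2, 27 under plain totals and 4 to 12 without single libraries. With the fold, 1 was higher (1 to 3), with 0 when mitochondrial genes were left out, 3 with the 2 groups alone, 2 with paired-end and 0 with single-read runs, and 2 were lower (2 to 4), with 4 under plain totals and 1 with single-read runs.

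For Neuron against PP, 20 members were higher (14 to 22), with 13 when mitochondrial genes were left out and 4 under plain totals, and 21 were lower (13 to 21), with 51 under plain totals. With the fold, 4 were higher (3 to 9, with 9 without PP library L355 and 7 without Neuron library L395), with 1 when mitochondrial genes were left out, 1 under plain totals and 2 with single-read runs, and 5 were lower (4 to 6), with 3 with the 2 groups alone and 19 under plain totals.

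Summed levels moved with plain totals. For Neuron against DP and against PP, the log2 values became 0.16 and 0.24 for the mitochondrial genes (0.38 and 0.55 with TMM), -0.12 and -0.22 for complex I, -0.37 and -0.63 for complex II, -0.091 and -0.25 for complex III, -0.040 and -0.15 for complex IV and -0.12 and -0.33 for the ATP synthase. The TMM values were 0.10 and 0.09, -0.15 and -0.32, 0.13 and 0.06, 0.18 and 0.15, and 0.10 and -0.02. Without the 3 most counted genes, the mitochondrial sum gave 0.52 against PP, and complex II, of which Sdhd alone was then left, gave -0.30 and -0.58 against DP and PP. Single genes reversed were Cox6b1 (-0.023), Cox7a2 (-0.0097), Uqcrc2 (-0.067) and Uqcrh (-0.077), all for Neuron against PP under plain totals.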

Other observations

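Other RNAs of the mitochondrial genome were counted too, although the libraries were made from poly-A RNA. The ribosomal RNAs mt-Rnr1 and mt-Rnr2 were both higher in Neuron. mt-Rnr1 was at 114, 122 and 94.4 CPM in PP, then 107, 138 and 115 in DP, then 247, 208 and 207 in Neuron (2.00-fold above PP, edgeR adjusted p = 1.07e-05). mt-Rnr2 was at 394.4, 327 and 258 CPM in PP, then 331, 322 and 278 in DP, then 819, 595 and 632 in Neuron (2.09-fold, edgeR adjusted p = 6.03e-05). DP and PP overlapped for both.

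Of the 8 transfer RNA genes of the light strand, 5 were lower in Neuron than in PP and none was higher, with a median log2 fold change of -0.97. Over all features, 36.7% were higher and 38.6% lower. Of the 12 tested on the heavy strand, 2 were lower, with a median of -0.23. mt-Te, the gene next to mt-Nd6 on the light strand, was at 12.2, 11.6 and 16.8 CPM in PP, then 9.11, 5.35 and 11.5 in DP, then 2.53, 3.74 and 4.04 in Neuron (3.94-fold lower than PP, edgeR adjusted p = 3.75e-05). Counts over genes this short are low, and no source used here gives whether the counts were made by strand.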
